A study of Sus scrofa with 2 samples.

Results

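KLRF1 was followed across the cells of pig endometrium because its UMIs lay mainly in endothelial cells rather than in lymphocytes. It was found by its symbol, which stands on 1 of the 26881 rows of the deposited gene table, with the identifier ENSSSCG00025004053. The gene was chosen with its level in these cells known, so its levels are given as a description, with no test. UMIs are counts of distinct captured transcript molecules.

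KLRF1 encodes a C-type lectin-like activating receptor of natural killer (NK) cells, which also occurs on some T cells. In humans its ligand is the product of CLEC2B, a neighbouring gene of the NK gene complex, and it signals through the kinase SYK. Endothelial cells line blood and lymph vessels, whereas NK cells are lymphocytes, which abound in the uterine lining of early pregnancy.

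The study took endometrium from 2 pregnant Yorkshire sows aged 3 years, 1 at day 7 and 1 at day 13 after insemination, to compare the uterine lining before and during receptivity. Tissue was digested with enzymes and captured in droplets for 10x single-cell sequencing of transcript 3′ ends. Each sow gave 1 library. The sample labels do not tie a day to a library, and stage words in the names of the deposited files were not used for grouping. The libraries are therefore called library 1 and library 2, and differences between them cannot be told apart from differences between animals or preparations.

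Library 1 held 10045 barcodes and 45388759 UMIs, and library 2 held 15093 barcodes and 87514969 UMIs. After removal of called doublets (1110 and 2419 barcodes), 8930 and 12673 barcodes were kept. Of 31 clusters, 28 drew over 90% of their barcodes from 1 library, and 28 were named from marker genes. The libraries shared 48 barcode sequences, of which 1 in library 1 and 10 in library 2 were kept and held KLRF1.

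The endothelial and vessel type labels rest on marker genes, so the levels of these genes describe the labels and are no separate check. The 15 blood endothelial markers with a symbol, which named the clusters, were all at least 4-fold higher in the endothelial-like than in the T or NK cell-like barcodes of library 2, where 9.84% of all genes tested were. In library 1 this held for 12 of the 14 with enough UMIs, where 8.87% of all genes tested were as much higher. In library 2 the junction protein gene PECAM1 was at 643 CPM (UMIs scaled to the same total in each class) in the venous endothelial-like barcodes, and the fenestral diaphragm gene PLVAP at 1441 CPM. ACKR1, a chemokine receptor of venules, was at 347 CPM there and at 5.02 CPM in the arterial endothelial-like barcodes. The leukocyte gene PTPRC was at 0 by construction, because endothelial barcodes with a PTPRC UMI were set apart.

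In library 2, KLRF1 was detected in 1574 of 2261 PTPRC-free blood endothelial-like barcodes, or 69.6% (exact Clopper-Pearson 95% interval 67.7 to 71.5%). They held 6760 KLRF1 UMIs, or 570 CPM (exact Poisson 95% interval 557 to 584). In library 1 it was detected in 13 of 2503 such barcodes, or 0.519% (0.277 to 0.887%), at 1.40 CPM. The median barcode held 4221 UMIs in library 2 and 3010 in library 1. All intervals cover counting error only, because cells of 1 animal are not replicates.

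Lymphocytes carried less. Of 769 PTPRC-positive T or NK cell-like barcodes in library 2, 150 held KLRF1, or 19.5% (16.8 to 22.5%), at 140 CPM and a median depth of 1695 UMIs. The endothelial level was 4.08-fold that of the lymphocytes, or 2.03 on the log2 scale (exact conditional binomial interval 1.82 to 2.24). KLRF1 ranked 809 of 8343 genes by this ratio, and 9.84% of them were at least 4-fold higher in the endothelial-like barcodes, so a ratio of this size was common. In library 1, 1 of 413 lymphocyte barcodes held KLRF1, with 1 UMI, and no order could be read there.

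The shares were also compared at equal depth in library 2. With each barcode thinned to 1000 UMIs, 37.0% of endothelial-like barcodes and 11.5% of T or NK cell-like barcodes held KLRF1, with 34 and 67 shallower barcodes left out. Epithelial-like barcodes, which should lack the gene, held it in 90 of 4321 cases, or 2.08% at a median of 3314 UMIs, and in 0.577% after thinning. Both endothelial and lymphocyte shares lay above that level. Macrophage, monocyte or dendritic cell-like barcodes, however, held KLRF1 in 12.3% after thinning (9.55 to 15.6%), near the lymphocyte share. Among the other named classes outside the endothelium, stromal fibroblast-like barcodes came next at 3.49%.

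**Figure D1:**
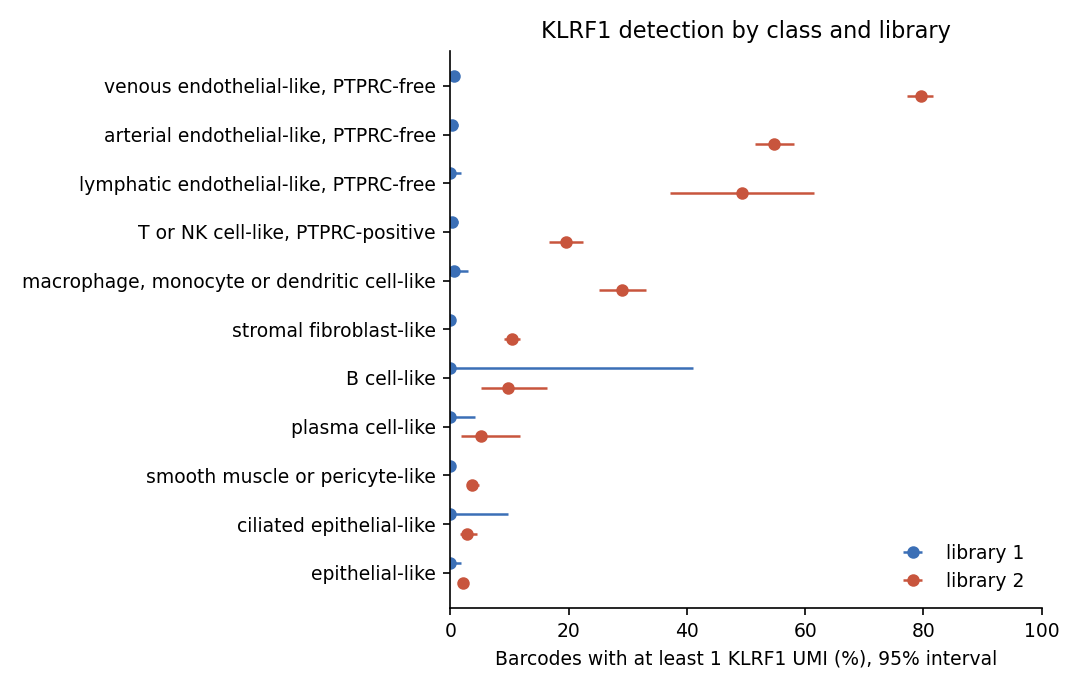
Share of barcodes with at least 1 KLRF1 UMI (x axis, percent) in each class (y axis), with points for library 1 (blue) and library 2 (red) and 95% Clopper-Pearson intervals. In library 2 the venous endothelial-like barcodes stand at 79.5% and the epithelial-like ones at 2.08%, while no class of library 1 passes 1%.

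Between the venous and arterial endothelial-like classes, venous barcodes held KLRF1 more often. In library 2, 1077 of 1354 were positive, or 79.5% (77.3 to 81.7%), at 695 CPM, against 497 of 907 arterial endothelial-like barcodes, or 54.8% (51.5 to 58.1%), at 371 CPM. The venous level was 1.87-fold the arterial one, or 0.90 on the log2 scale (0.83 to 0.98). KLRF1 ranked 375 of 8067 genes by this ratio, below the 0.657% that were at least 4-fold higher in the venous barcodes. Thinned shares were 45.0% and 25.1%. In library 1, 12 of 2094 venous and 1 of 409 arterial barcodes held KLRF1.

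The cluster named arterial also carried the capillary genes FLT1 and GPIHBP1 among its leading genes. The endothelial barcodes of library 2 were therefore clustered again by themselves, a step chosen after seeing the data. Venous subclusters of 377 and 294 barcodes then held KLRF1 in 83.0% and 82.3%. An arterial subcluster of 243 barcodes had 57.2%, and a capillary subcluster of 502 had 46.4%. A pair of subclusters with no clear type, of 723 and 122 barcodes, had 75.4% and 83.6%. The 6 subclusters thus ranged from 46.4% to 83.6%, and the 5 subclusters of library 1 from 0 to 1.41%. These shares were not thinned, and median depth in library 2 ran from 3521.5 UMIs in the capillary subcluster to 7252 in the smaller untyped one. By level, the venous subclusters were at 595 and 782 CPM and the untyped ones at 702 and 523 CPM. The arterial subcluster was at 342 CPM and the capillary one at 322 CPM.

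Lymphatic endothelial-like barcodes, which line lymph vessels and express PROX1, were few. In library 2, 35 of 71 held KLRF1, or 49.3% (37.2 to 61.4%), at 228 CPM. In library 1, 0 of 205 did, which allows a share of barcodes with a UMI of up to 1.46% (3 counts). With the 0 UMIs of library 1 set to a floor of 3, the level in library 2 was 52.0-fold higher. On the log2 scale this was 5.70, with an interval from 5.37 upward that was computed from the counts without that floor. Of the 72 barcodes of library 2 in no class, 70 came from a cluster led by cell division genes whose best marker score was blood endothelial. Those leading genes and that score were computed on the 91 barcodes of library 1 in the cluster. These 72 held KLRF1 in 49 cases, at 276 CPM and a median depth of 9046 UMIs.

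Of 1224 kept barcodes of library 2 with at least 3 KLRF1 UMIs, 962 were PTPRC-free blood endothelial-like. At least 3 UMIs were found in 723 venous endothelial-like barcodes of library 2 (53.4%), with a maximum of 20, and in 239 arterial ones (26.4%). The same was true of 10 of the 769 lymphocyte barcodes (1.30%), with a maximum of 5. Endothelial-like barcodes, 20.8% of those kept in library 2, held 85.5% of its KLRF1 UMIs, and T or NK cell-like barcodes held 2.19%.

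**Figure D2:**
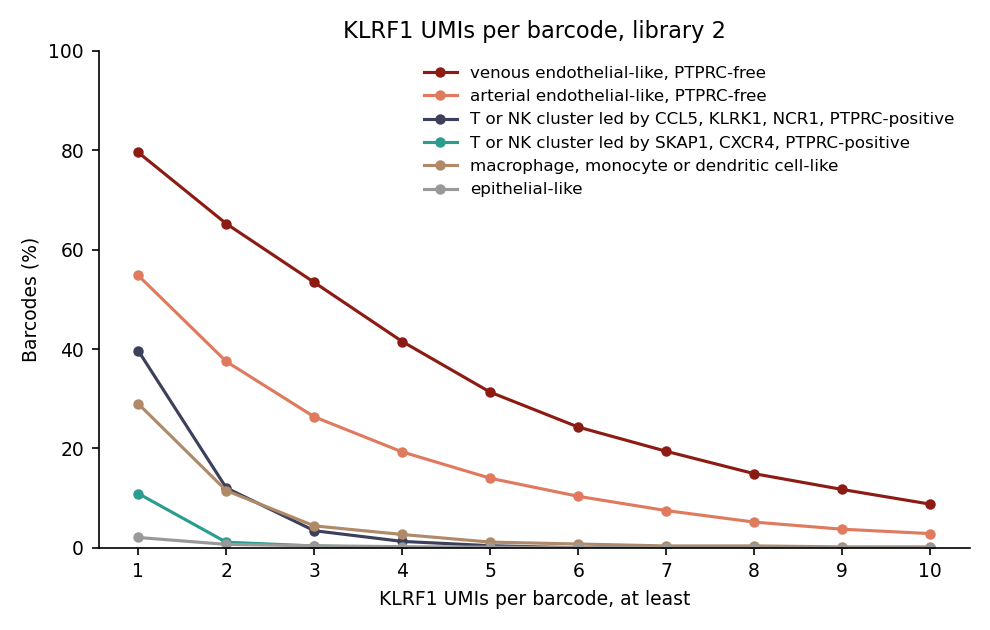
Percent of barcodes in library 2 (y axis) with at least the number of KLRF1 UMIs on the x axis, 1 line per class. The venous line is at 53.4% and the arterial line at 26.4% at 3 UMIs, where the lymphocyte clusters are at 3.45% and 0.377%.

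Within the lymphocytes, KLRF1 was higher in the cluster with NK genes. The T or NK cluster led by CCL5, KLRK1, KLRB1 and NCR1 held it in 92 of 232 barcodes of library 2, or 39.7% (33.3 to 46.3%), at 261 CPM. The cluster led by SKAP1 and CXCR4 held it in 58 of 531, or 10.9% (8.40 to 13.9%), at 73.1 CPM. With barcodes thinned to 1000 UMIs, the shares of these clusters were 23.5% (18.0 to 29.7%) and 6.40% (4.39 to 8.97%). At that depth the NCR1-led cluster was near the arterial share of 25.1% (22.3 to 28.1%) and below the venous share of 45.0%. Of the 194 PTPRC-positive barcodes with a UMI of NCR1, an NK activating receptor, 80 held KLRF1, or 41.2%. In library 1, 1 of 16 NCR1-positive barcodes did. This division of the lymphocytes was made after seeing the data.

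KLRF1 was also found in endothelial barcodes free of lymphocyte markers. Of library 2 endothelial-like barcodes with no UMI of any of the 20 T and NK cell markers, 637 of 982 held KLRF1, or 64.9% (61.8 to 67.9%), at 591 CPM. Endothelial-like barcodes with a PTPRC UMI held it in 217 of 296, or 73.3%, at 521 CPM. The summed level of the 20 markers was 235 CPM in PTPRC-free endothelial-like barcodes and 18297 CPM in T or NK cell-like ones. Of the 20, only PTPRC, which the rule sets to 0, had no UMI in the endothelial-like barcodes of library 2, and KLRD1 had 2 UMIs there. In library 1, PTPRC and KLRD1 had none. Per UMI of these markers, KLRF1 gave 2.42 UMIs (2.32 to 2.53) in the endothelium and 0.00764 (0.00661 to 0.00878) in the lymphocytes of library 2.

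LCK, a T cell kinase gene, and CD247, which encodes a signalling chain of T and NK cell receptors, made up most of that 235 CPM. LCK was at 129 CPM in PTPRC-free endothelial-like barcodes of library 2 and at 3.90 CPM in library 1, against 407 CPM in the lymphocytes of each library. CD247 was at 68.6 CPM in library 2 and 115 CPM in library 1. LCK was thus higher in the library whose endothelium held KLRF1, and CD247 was not.

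Other NK receptor genes were low in endothelium. Of 11 with at least 10 UMIs in library 2, KLRF1 left out, 11 were at least 4-fold lower than in lymphocytes, where 7.14% of all genes tested were, with a median log2 ratio of -8.51 against -0.20 over all genes. In library 1 this held for 10 of 10, with 8.18% of all genes, at a median of -7.97. KLRB1 was at 1.18 CPM in endothelial-like and 794 CPM in lymphocyte barcodes of library 2. KLRK1 was at 4.05 and 1979 CPM, and NCR1 at 0.590 and 330 CPM. All 8 measured cytotoxic effector genes, among them NKG7, were also at least 4-fold lower in the endothelium of both libraries. KLRB1, KLRD1, KLRK1, NCR1 and CD96, and the effector genes NKG7, PRF1, CST7 and CCL5, were among the markers that named the lymphocyte clusters. Their direction was therefore largely set by the naming. The other NK receptor genes counted were not among those markers.

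**Figure D3:**
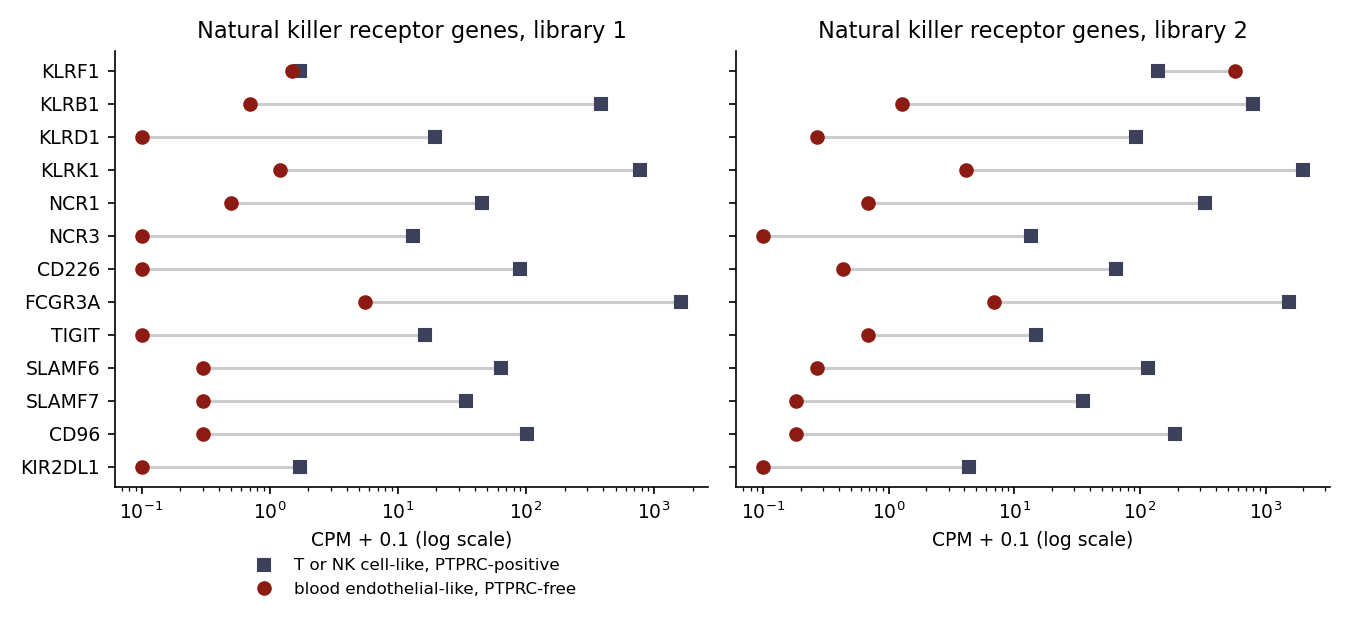
Level of NK receptor genes (CPM + 0.1, log scale) in PTPRC-free blood endothelial-like (red circles) and PTPRC-positive T or NK cell-like barcodes (dark squares), with 1 panel per library. In library 2 the endothelial point lies to the right of the lymphocyte point for KLRF1, at 570 against 140 CPM, and to the left for the other genes shown.

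Of 12 measured genes of the ligand and signalling list, 9 were at least 4-fold lower in endothelium than in lymphocytes of library 2 and 1, CLEC2B, was higher, where 7.14% and 9.84% of all genes tested were. The counts were the same in library 1, against 8.18% and 8.87%. SYK was at 0.928 CPM in the endothelium and 148 CPM in lymphocytes. FCER1G and TYROBP, adaptor genes of immune receptors, were at 1.52 and 2.36 CPM against 253 and 96.0 CPM. GRB2, a general adaptor gene, was at 107 and 275 CPM, and VAV3 at 103 and 251 CPM, both within 4-fold. Members of this list, among them ZAP70 and CD247, were also naming markers of the lymphocyte clusters.

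Of 9 measured genes of the NK gene complex and its lectin relatives, 4 were at least 4-fold higher in endothelium of library 2 and 4 lower, against 9.84% and 7.14% of all genes tested, with a median log2 ratio of 0.64. In library 1, 2 of 9 were higher and 5 lower, against 8.87% and 8.18%, with a median of -6.02. The higher ones in library 2 were CLEC2B, the endothelial lectin gene CLEC1A, the scavenger receptor gene OLR1 and the autophagy gene GABARAPL1. The lower ones there were KLRB1, KLRD1, KLRK1 and the activation marker gene CD69. All of these lower genes were markers that named the lymphocyte clusters, and CLEC1A was one that named the endothelial clusters. Their directions were therefore largely set by the naming. CLEC1A was at 151 CPM in the endothelium and 1.41 CPM in the lymphocytes, from 2 UMIs in the latter.

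Between the libraries, KLRF1 was higher in library 2 in venous, arterial and T or NK cell-like barcodes. Over all barcodes it had 18 UMIs in library 1 (0.397 CPM) and 12575 in library 2 (144 CPM). In venous endothelial-like barcodes the level was 452-fold higher in library 2, or 8.82 on the log2 scale (8.04 to 9.73). With counts under 3 UMIs set to 3 in all ratios, though not in their intervals, it ranked 3 of 8189 genes. Of these, 9.32% were at least 4-fold higher. In arterial ones it ranked 2 of 7672 genes (7.34% at least 4-fold higher), with 1 UMI in library 1 and an interval of 6.69 to 14.47 on the log2 scale. In T or NK cell-like barcodes it ranked 6 of 6784 genes (6.62%), again with 1 UMI in library 1, and the interval was 3.93 to 11.73. The difference was thus present in lymphocytes as well as in endothelium. The arterial class, however, may not hold the same vessel types in both libraries. Its arterial markers had a median log2 ratio of -1.24 for library 2 over library 1, and its capillary markers 1.45. Over all genes the median was -0.08. The arterial ratio may therefore not compare matched cells. The make-up of the lymphocyte class also differed, with 16 of 413 barcodes NCR1-positive in library 1 and 194 of 769 in library 2. Among NCR1-positive barcodes KLRF1 was at 44.8 CPM (1.14 to 250) in library 1, from 1 UMI, and 264 CPM (218 to 317) in library 2. The part of class make-up in the lymphocyte difference was not tested.

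CLEC2B, the ligand gene, lies on the row next to KLRF1 in the deposited table. It was at 427 CPM in venous endothelial-like barcodes of library 1 and 938 CPM in library 2, and at 65.1 and 123 CPM in the lymphocytes. On the log2 scale it was higher in library 2 by 1.14 in venous, 1.60 in arterial and 0.92 in T or NK cell-like barcodes. CLEC2B was thus abundant in the endothelium of library 1, where KLRF1 was almost absent. CLEC2B was among the genes used for clustering and led the venous clusters, so its venous level is partly set by that choice.

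The proportion of KLRF1 to CLEC2B was compared across the classes of library 2. There were 0.704 KLRF1 UMIs per CLEC2B UMI (0.682 to 0.726) in PTPRC-free blood endothelial-like barcodes, 0.663 (0.579 to 0.758) in stromal, 0.654 (0.492 to 0.866) in smooth muscle and 0.575 (0.470 to 0.702) in epithelial-like barcodes. Within the endothelium, venous barcodes had 0.741 (0.714 to 0.768) and arterial ones 0.612 (0.576 to 0.651). Macrophage-like barcodes had 0.917 (0.773 to 1.09) and B cell-like ones 1.42 (0.638 to 3.25). T or NK cell-like barcodes had 1.14 (0.924 to 1.40), and the NCR1-led cluster 1.50 (1.14 to 1.99). With called doublets kept, the lymphocyte value was 0.799 (0.710 to 0.899) and the endothelial one 0.700, so the distance between the classes was smaller. In the endothelium of library 1 the value was 0.00357 (0.00195 to 0.00600). These ratios were added after seeing the data.

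**Figure D4:**
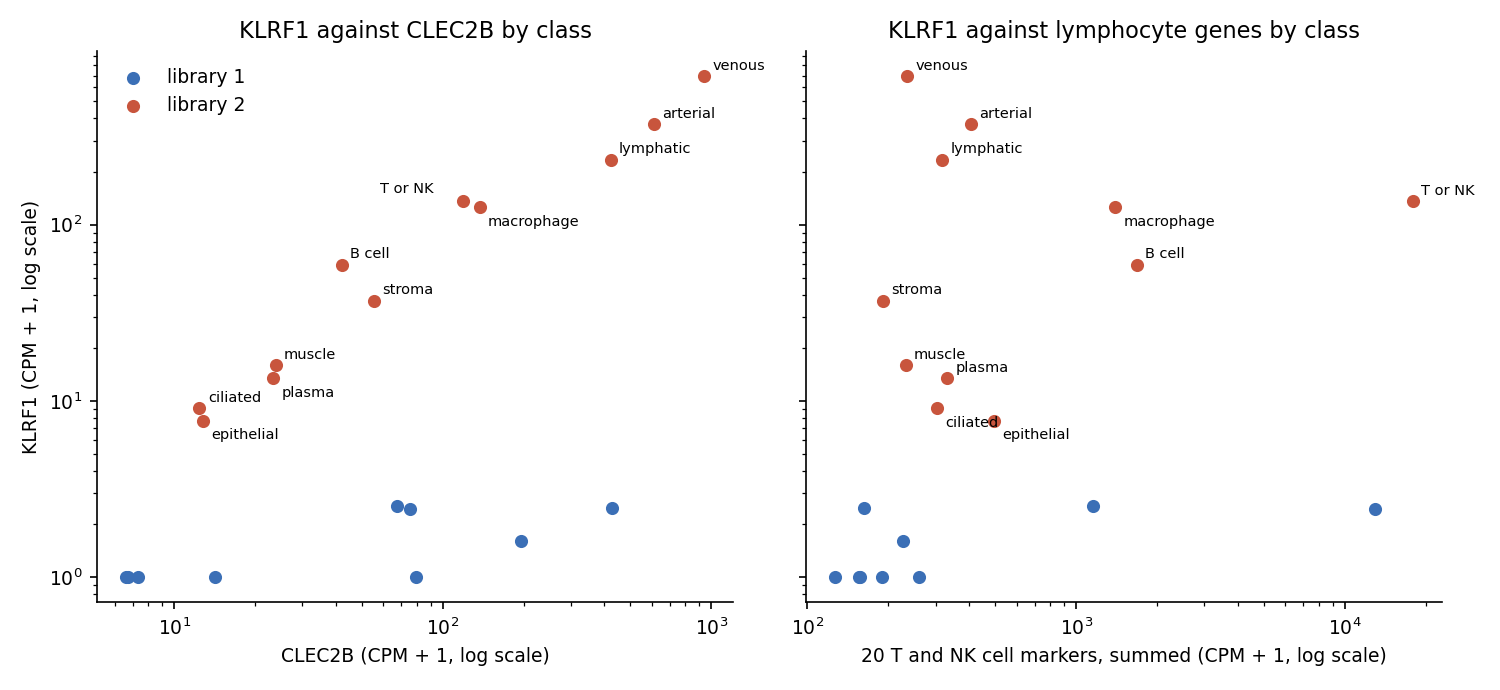
KLRF1 (y axis, CPM + 1, log scale) against CLEC2B (left) and the summed 20 T and NK cell markers (right), 1 point per class and library, all kept barcodes of a class with no PTPRC rule, and classes of library 2 named. In library 2 the 3 endothelial classes are highest for both KLRF1 and CLEC2B, whereas the T or NK class has the highest marker sum and a lower KLRF1 level than the 3 endothelial classes.

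Within a class, barcodes with more CLEC2B more often held KLRF1. In venous barcodes of library 2 thinned to 1000 UMIs, KLRF1 was found in 31.2% of 625 barcodes with 0 CLEC2B UMIs, 48.9% of 356 with 1, 62.9% of 194 with 2 and 69.9% of 153 with 3 or more. Arterial shares were 15.1%, 39.0%, 43.7% and 58.3%. By ACKR1 the venous shares were 44.6%, 48.4%, 47.1% and 30.0%, the last over 30 barcodes, with no such gradient.

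**Figure D5:**
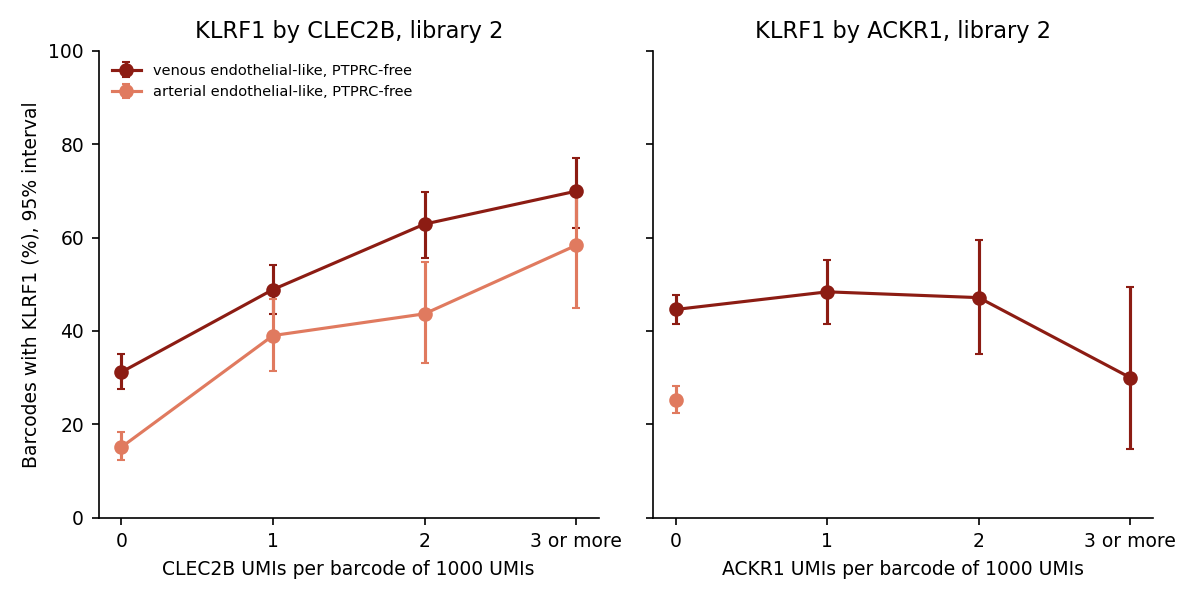
Percent of thinned library 2 endothelial-like barcodes with KLRF1 (y axis, 95% Clopper-Pearson intervals) by the number of CLEC2B (left) or ACKR1 (right) UMIs in the barcode. Venous shares go from 31.2% to 69.9% over the CLEC2B groups, and arterial barcodes are shown for 0 ACKR1 UMIs alone because the other groups were too small.

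KLRF1-positive and KLRF1-negative venous barcodes (598 and 730 after thinning) were then compared. CLEC2B was higher in the positive ones by 1.10 on the log2 scale (0.94 to 1.26), and in arterial barcodes by 1.48 (1.23 to 1.72). The intervals for PECAM1 (-0.24 to 0.16), PLVAP (-0.12 to 0.14) and ACKR1 (-0.33 to 0.22) spanned 0 in the venous barcodes. CLEC1A differed by -0.47 (-0.92 to -0.03). The summed T and NK cell markers differed by 0.07 (-0.26 to 0.40).

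Outside the endothelium, KLRF1 was accompanied by endothelial genes in stromal and epithelial-like barcodes of library 2, and less so in immune classes. Stromal fibroblast-like barcodes held it in 227 of 2181 cases (10.4%), smooth muscle or pericyte-like ones in 49 of 1318 (3.72%), and macrophage, monocyte or dendritic cell-like ones in 151 of 521 (29.0%, 125 CPM). B cell-like barcodes held it in 12 of 124 and plasma cell-like ones in 5 of 95. The 22 stromal barcodes with at least 3 KLRF1 UMIs had the summed blood endothelial markers at 1354 CPM, against 247 CPM in those with 0. In epithelial-like barcodes the values were 1230 CPM over 18 barcodes and 198 CPM, at median depths of 16254.5 and 3257 UMIs. In macrophage-like barcodes they were 637 CPM over 23 barcodes and 474 CPM, and in PTPRC-positive T or NK cell-like ones 389 CPM over 10 barcodes and 290 CPM. The part of free RNA and of undetected doublets in these barcodes was not tested.

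The place of the gene in the annotation was also examined. The deposited table lists KLRF1 before CLEC2B and CD69, whereas RefSeq Sscrofa11.1, which may not be the build of the files, lists CLEC2B, KLRF1 and CD69. CLEC1B and CLEC12B also stand in opposite order in the lists, so the row order may not be the order on the chromosome. Of the pair of rows without a symbol just before KLRF1, ENSSSCG00025003928 was at 7.01 CPM and ENSSSCG00025003879 at 0.825 CPM in venous barcodes of library 2, where KLRF1 was at 695 CPM. Whether reads of a neighbouring transcript were counted as KLRF1 was not tested, since the tables hold no read positions.

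The genes with the most similar pattern were found by Pearson correlation of log2(CPM + 10) over 20 pairs of class and library, among 9042 genes. Classes of a library share its preparation and depth, so the values are a description. ZDHHC15, a palmitoyltransferase gene, came first at 0.968, followed by FRMD5 at 0.920, GCH1 at 0.902 and PPP3CA at 0.886. PRKCE, ARHGAP26, YAF2, C1H15orf41, DISC1 and ARID2 lay between 0.885 and 0.865. Over the 11 classes of library 2 alone CLEC2B came first at 0.983, then ARAP3 at 0.968 and ZDHHC15 at 0.9304. CLEC2B ranked 387 over both libraries, at 0.686. The 19 T and NK cell markers that were ranked lay between -0.05, for CD247, and 0.48, for LCK, over both libraries, with PTPRC at 0.22 and NCR1 at 0.19. Over library 2 alone LCK was at 0.66.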

How the data were processed

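The authors deposited unnormalised UMI counts for each gene and barcode, and the values were checked to be whole numbers. Cell Ranger 6.1.0 is named per the file headers, and version 2.1.1 per the submitters' processing notes. No genome build and no treatment of intron reads is given in the sources used here. Of 26881 rows, 16128 have no symbol, and 144 of 215 marker entries and 60 of 98 list entries matched one.

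Barcodes under 500 UMIs or 200 genes were dropped, and doublets called by Scrublet in scanpy 1.11.5 were removed. Both libraries were clustered together (2000 variable genes, 30 components, 15 neighbours, Leiden resolution 1.0, igraph 0.11.9, seed 1) with KLRF1 and PTPRC left out. Clusters were named from marker lists by mean log2 fold (pseudocount 20 CPM, at least 3 markers, mean of at least 0.5, margin 0.25). Barcodes in no class were 8.07% and 0.568%. The gene, the lists and the naming rule were chosen with earlier results of these data known.

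With 1 library per group no test was made. Shares have exact Clopper-Pearson and levels exact Poisson 95% intervals, and ratios, though not their intervals, use a floor of 3 UMIs. List members needed 10 UMIs, and 4-fold counted as a difference. Named genes were KLRF1, members of the NK receptor, NK gene complex and ligand and signalling lists, the highest members of marker lists, and the 10 genes of most similar pattern with at least 50 UMIs. ARAP3 came from the same ranking within library 2, and cluster leaders were named to identify clusters. The interval and class naming steps were run on simulated Poisson counts, the model that the intervals assume, which checks the code alone. Vessel type naming was not part of that run. TMM scaling used edgeR 4.0.16 in R 4.3.3.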

Additional observations from a re-analysis of the deposited data

How the results depend on the processing

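Of 109 values recomputed under alternatives, 82 stayed within the counting interval of the reported value, or within 1.5 times a reported count, and 27 moved outside it. A change of direction could be scored only for the log2 ratio of endothelium over lymphocytes, which stayed positive in each setting. Thinning to 1000 UMIs gave shares of 0.124% in library 1 endothelium and, in library 2, 37.0% in endothelium, 11.5% in T or NK cell-like, 45.0% in venous and 25.1% in arterial barcodes. Leaving out endothelial barcodes with any T and NK marker UMI gave 64.9%, and 72.9% for venous ones. A marker gate without clusters gave 59.4% and a log2 ratio of endothelium over lymphocytes of 2.29, with 86 of 1129 endothelial barcodes at its limit, and gave no endothelial types. Venous and arterial shares were 70.9% and 58.7% at resolution 0.5, 86.1% and 58.9% at resolution 2.0, 85.2% and 59.5% with each library clustered by itself, and 83.9% and 61.9% from 1000 UMIs and 500 genes. The arterial share was 51.2% with KLRF1 and PTPRC among the clustering genes. The venous share was 82.7% when the endothelium was clustered again, an alternative chosen after seeing the data. Capillary clusters, absent from the reported clustering, had 54.0% at resolution 2.0, 55.4% with separate clustering, 53.3% under the stricter filter and 46.4% when clustered again. With called doublets kept, the lymphocyte share was 25.2%, the log2 ratio 1.65 and the arterial share 51.4%, KLRF1 per T and NK marker UMI was 1.92 in endothelium and 0.0145 in lymphocytes, and KLRF1 per CLEC2B UMI in lymphocytes was 0.799. Without the PTPRC rule, KLRF1 per T and NK marker UMI in endothelium was 1.85. With members from 50 UMIs, 5 of 5 NK receptor genes of library 1 were lower in endothelium. The ratios to CLEC2B, and the alternatives for the ratios to T and NK markers other than keeping doublets, were added after seeing the data. Venous shares exceeded arterial ones in each setting that gave both. TMM scaling shifted the log2 ratios of endothelium over lymphocytes by 0.02 and 0.19. The causes of these moves were not tested. Alternatives were not run for the comparison of KLRF1-positive with negative barcodes. No paired analysis was possible because each group holds 1 library.

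In library 1, 16 KLRF1 UMIs were kept, 14 of them in endothelial-like and 1 in T or NK cell-like barcodes, so the order of those 2 classes cannot be read there. Lymphocyte barcodes were shallower than endothelial ones, and 1 animal per library leaves animal, day and preparation inseparable.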
